A study of Mus musculus with 4 samples.

Results

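The genes that build the scaffold of the sarcomere were examined in heart muscle cells after pressure overload. A list of 39 genes was drawn up by symbol to cover the Z-disc, the M-band, the titin and nebulin families, the intermediate filament network and the proteins that assemble or cap the filaments. It was chosen with earlier results of these data known, so its shares of called genes are descriptions and not tests. All 39 were found in the deposited tables, which hold 22322 genes, and 38 had enough counts to be tested. RNA had been sequenced from cardiomyocytes of 2 sham-operated and 2 TAC mice, where TAC (transverse aortic constriction) narrows the aorta and puts the left ventricle under pressure load, a mouse model of heart failure. According to the methods section the mice were male, had surgery at 2 months of age and were followed for 14 weeks, although the same passage also calls them 14 weeks old at isolation. The strain was not given in that section or in the labels. Each library came from an aliquot of the cells of 1 heart, released by Langendorff perfusion, so that n = 2 per group counts animals. The labels name no transgene, drug or genotype that differs between the groups.

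The sarcomere is the contractile unit of striated muscle. Actin filaments are anchored at the Z-disc, where alpha-actinin crosslinks them, myosin filaments are held together at the M-band, and titin runs from one to the other. Many Z-disc proteins also sit at the intercalated disc, where myofibrils pull on the neighbouring cell, and several carry PDZ, LIM or immunoglobulin domains that dock kinases, phosphatases and chaperones. Growth of heart muscle cells under load is known to require new sarcomeres, and mutations in many of these genes cause inherited cardiomyopathy.

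Of the scaffold, 12 genes rose in TAC and 1 fell. At an adjusted p under 0.05 in the edgeR quasi-likelihood test, 12 of the 38 tested genes (31.6%) were higher in TAC, against 2.58% of all 12499 genes tested. These were Myot, Synpo2l, Enah, Xirp2, Flnc, Xirp1, Nrap, Sorbs2, Bag3, Pdlim5, Mypn and Cryab, with log2 fold changes from 0.44 to 1.47. Tcap was the 1 gene called lower (2.63%, against 2.43% of all genes, a share near the background). In either direction 5.01% of all genes were called. Well-expressed genes were called higher more often, but not lower. Among 3426 tested genes with a mean FPKM of at least 10, 6.3% were higher and 2.25% lower. Of the 35 scaffold genes at that level, 12 (34.3%) were higher.

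Levels are given as CPM, counts scaled to a common library size, with TMM factors unless another scaling is named. The scaffold genes without a call numbered 25, of which 19 were above 0 (log2 fold changes from −0.25 to 0.49). Both TAC libraries lay above both sham libraries in 24 of the 38 genes (63.2%) and below both in 4 (10.5%), whereas 29.8% and 30.3% of all tested genes did so, 60.1% in all. A log2 fold change above 0 was found in 31 genes (81.6%, against 49.1% of all), and an unadjusted p under 0.05 in 23 (60.5%, against 27.5%). The median log2 fold change was 0.28 for the scaffold genes and −0.01 for all tested genes. When the libraries were scaled by their total counts, as the study did, the median of all genes moved to −0.20 and that of the scaffold genes to 0.09, 22 genes were above 0, and 8 of the 12 rises were called, against 0.84% of all genes higher and 3.38% lower. The sign turned negative for Myom3, Ttn, Pdlim7, Sorbs3, Nexn, Unc45b, Tmod1, Cap2 and Mlip, none of which was called. The distance between the 2 medians was 0.29 under either scaling, but a change of scaling moves all genes by nearly the same amount. With the deposited FPKM this distance was 0.21, without sham 1 it was 0.21 and without sham 2 it was 0.35. DESeq2 called 17 scaffold genes higher and 1 lower, against 3.58% and 3.82% of all genes. With no filter on low counts, edgeR called 18 higher and 1 lower, against 4.41% and 6.05% of 16015 genes. In TAC 1, mitochondrially encoded genes took 47.4% of the counts, against 39.8% to 40.9% in the other libraries. Without TAC 1, with the spread taken from the sham pair alone, edgeR called 8 scaffold genes higher and 0 lower, against 0.864% and 0.408% of all genes, with a median of 0.24. Within the sham group 33 of 38 genes were lower in sham 1 than in sham 2, by a median of 0.12 on the log2 scale.

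**Figure D1:**
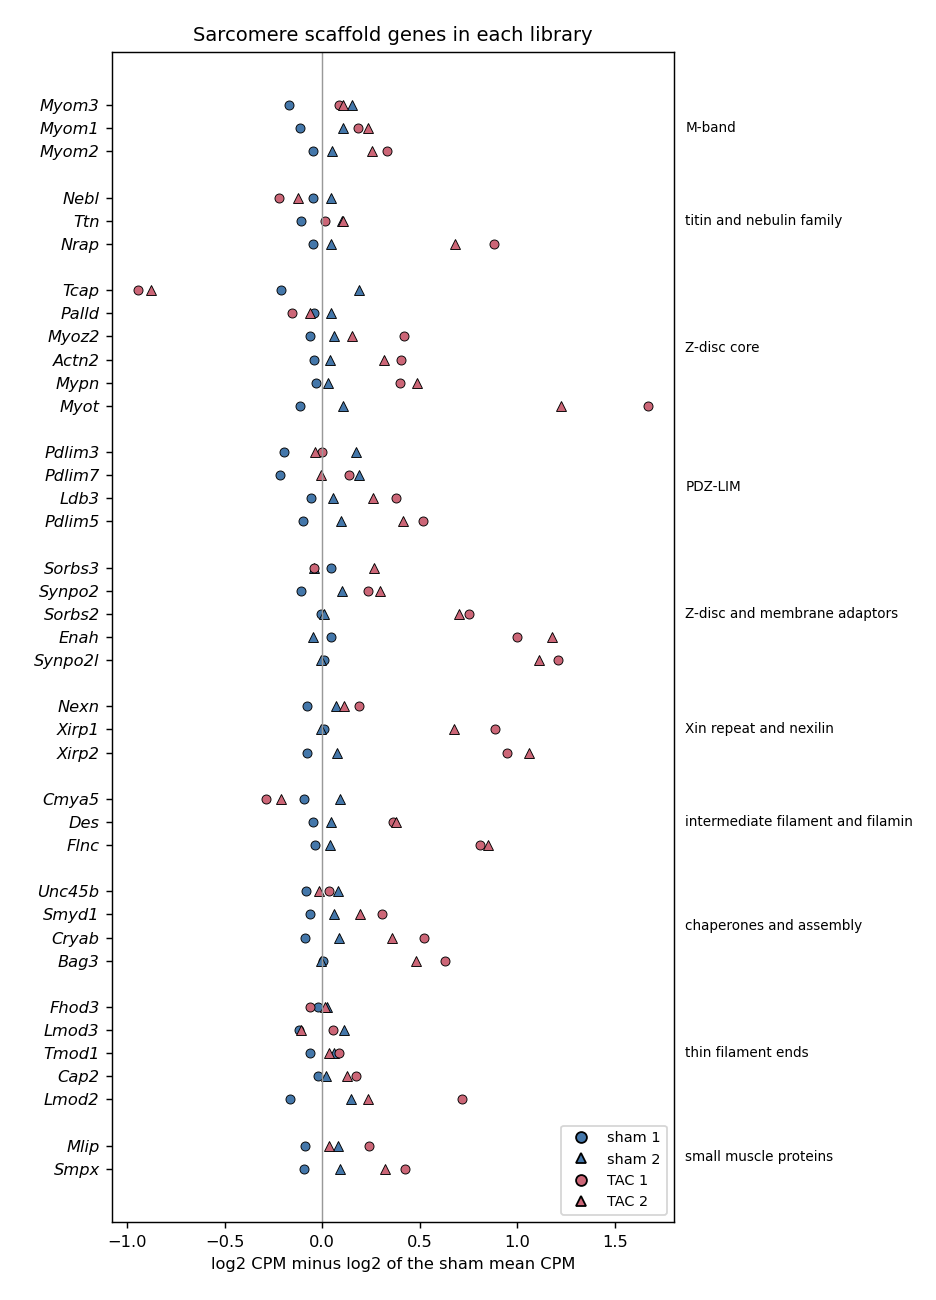
Level of the 38 tested scaffold genes in each library, as log2 CPM minus log2 of the sham mean, grouped by role. Blue symbols are sham and red symbols TAC, circles library 1 and triangles library 2. Both red symbols lie to the right of both blue ones for 24 genes and to the left for 4, with Myot and Tcap at the ends.

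The Z-disc core held both extremes. Myot (ENSMUSG00000024471, chr18:44334074-44355724 on GRCm38), myotilin, which binds alpha-actinin, filamin C and actin, stood at 61.8 CPM (sham 1) and 72.1 CPM (sham 2), against 213 CPM (TAC 1) and 157 CPM (TAC 2). The TAC libraries were far above the sham libraries but also 0.45 apart on the log2 scale. The mean was 66.9 ± 7.33 CPM in sham and 185 ± 40.2 CPM in TAC (SD, n = 2 each), a 2.77-fold rise (log2 fold change 1.47 ± 0.15 SE, edgeR adjusted p = 0.00492). It was the largest rise of the list.

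Tcap (ENSMUSG00000007877, chr11:98383811-98384953) encodes telethonin, which ties the ends of titin molecules together at the Z-disc. It stood at 722 CPM (sham 1) and 952 CPM (sham 2), against 435 CPM (TAC 1) and 455 CPM (TAC 2). The TAC libraries were close to each other, and the groups did not overlap although the sham libraries differed by 0.40 on the log2 scale. The fitted change was −0.91 ± 0.13 on the log2 scale (edgeR adjusted p = 0.0149), from 837 ± 163 to 445 ± 14.2 CPM (SD, n = 2 each). Without TAC 1 the fall was nearly as large, at −0.88, and missed the threshold (edgeR adjusted p = 0.0544), in a fit where 1 TAC library remains and is assumed to vary like the sham pair. Per transcript length, Tcap was second only to Cryab among the scaffold genes in sham, at 835 and 1044 FPKM, and dropped to 398 and 484 FPKM in TAC. The titin gene did not pass the test. Ttn stood at 5837 CPM (sham 1) and 6736 CPM (sham 2), against 6351 CPM (TAC 1) and 6774 CPM (TAC 2). Its groups overlapped (0.06 ± 0.11 on the log2 scale, edgeR adjusted p = 0.755, or −0.12 with library totals). The FPKM of Tcap per FPKM of Ttn was 8.82 (sham 1) and 10.2 (sham 2), against 4.86 (TAC 1) and 4.88 (TAC 2).

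Of the immunoglobulin-domain relatives of myotilin, Mypn rose and Palld did not pass the test. Mypn (ENSMUSG00000020067, chr10:63115795-63203952), myopalladin, which links nebulette to alpha-actinin, was at 148 and 155 CPM in the sham libraries and at 199 and 212 CPM in TAC 1 and TAC 2. All TAC values lay above all sham values (log2 fold change 0.44 ± 0.07, edgeR adjusted p = 0.0240). Palld, palladin, was at 178 and 189 CPM in sham and at 164 and 176 CPM in TAC (log2 fold change −0.11 ± 0.08, edgeR adjusted p = 0.378). The FPKM of Mypn per FPKM of Palld went from 0.816 and 0.825 in the sham libraries to 1.19 and 1.15 in the TAC libraries. Actn2, the alpha-actinin of heart muscle, was at 1526 and 1615 CPM in sham and at 2079 and 1954 CPM in TAC, apart in every library but short of the threshold (log2 fold change 0.36 ± 0.09, edgeR adjusted p = 0.0582). Myoz2 (calsarcin-1), the cardiac anchor of calcineurin at the Z-disc, was at 456 and 497 CPM in sham and 636 and 531 CPM in TAC (log2 fold change 0.29 ± 0.10, edgeR adjusted p = 0.128).

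Myoz1, the calsarcin of fast skeletal muscle, was at the limit of detection. It had 2 counts in sham 2 and 0 in the other 3 libraries, where a count of 0 allows up to 3 counts (0.0948 CPM in sham 1, 0.108 in TAC 1 and 0.123 in TAC 2, counting error only). It was not tested.

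The adaptors that join the Z-disc to the membrane and to actin assembly held 3 of the called rises. Synpo2l (ENSMUSG00000039376, chr14:20658946-20668354), a synaptopodin-like actin and alpha-actinin binding protein, was at 132 CPM (sham 1) and 131 CPM (sham 2), against 303 CPM (TAC 1) and 283 CPM (TAC 2). The sham libraries were nearly equal and the TAC libraries both more than doubled them in level, a 2.23-fold rise (log2 fold change 1.16 ± 0.07, edgeR adjusted p = 0.00342). Enah (ENSMUSG00000022995, chr1:181896384-182019990), the actin filament elongation factor Mena, was at 112 CPM (sham 1) and 105 CPM (sham 2), against 217 CPM (TAC 1) and 245 CPM (TAC 2). Its groups were well apart (2.13-fold, log2 fold change 1.09 ± 0.09, edgeR adjusted p = 0.00342). Sorbs2 (ENSMUSG00000031626, chr8:45507788-45827906), an SH3-domain adaptor, was at 376 and 380.5 CPM in the sham libraries and at 638 and 614 CPM in the TAC libraries. These values differed little within either group (1.65-fold, log2 fold change 0.73 ± 0.07, edgeR adjusted p = 0.00492).

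Their relatives Synpo2 and Sorbs3 were not called. Synpo2 (myopodin) was at 122 and 141 CPM in sham and 155 and 161 CPM in TAC (log2 fold change 0.27 ± 0.09, edgeR adjusted p = 0.111). Sorbs3 (vinexin) was near 9 CPM in sham, at 9.17 and 8.62, and at 8.64 and 10.7 CPM in TAC, with overlapping groups (log2 fold change 0.12 ± 0.15, edgeR adjusted p = 0.650). The FPKM of Synpo2l per FPKM of Synpo2 was 2.21 (sham 1) and 1.91 (sham 2), against 4.21 (TAC 1) and 3.75 (TAC 2). Among the listed genes, Synpo2l and Myoz1 are neighbours on chromosome 14, on the same strand and 2405 bases apart. Synpo2 and Myoz2 are neighbours on chromosome 3, 41503 bases apart, so that each synaptopodin gene lies near a calsarcin gene. Whether unlisted genes lie between them was not examined. In the first pair Synpo2l rose beside a Myoz1 at the floor. In the second pair neither gene passed the test. Sorbs2 and Pdlim3 are 57554 bases apart on chromosome 8, and Pdlim3, which was not called, was at 3.86 and 4.97 CPM in sham and 4.41 and 4.29 CPM in TAC.

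Both Xin-repeat genes rose. Xirp2 (ENSMUSG00000027022, chr2:67446002-67526614), an actin-bundling protein of the intercalated disc and Z-disc, was at 643 CPM (sham 1) and 713 CPM (sham 2), against 1305 CPM (TAC 1) and 1412 CPM (TAC 2). The groups were separated by far more than their spread (2.0-fold, log2 fold change 1.00 ± 0.09, edgeR adjusted p = 0.00445). Xirp1 (ENSMUSG00000079243, chr9:120013755-120023598), the other Xin protein, was at 270 and 267 CPM in sham and 496 and 429 CPM in TAC (1.72-fold, log2 fold change 0.79 ± 0.09, edgeR adjusted p = 0.00669). Nexn, nexilin, an actin-binding protein of the Z-disc and the intercalated disc, was at 470 and 521 CPM in sham and 566 and 535 CPM in TAC. Its TAC values were just above its sham values, and it was not called (log2 fold change 0.15 ± 0.08, edgeR adjusted p = 0.285, or −0.0373 with library totals).

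**Figure D2:**
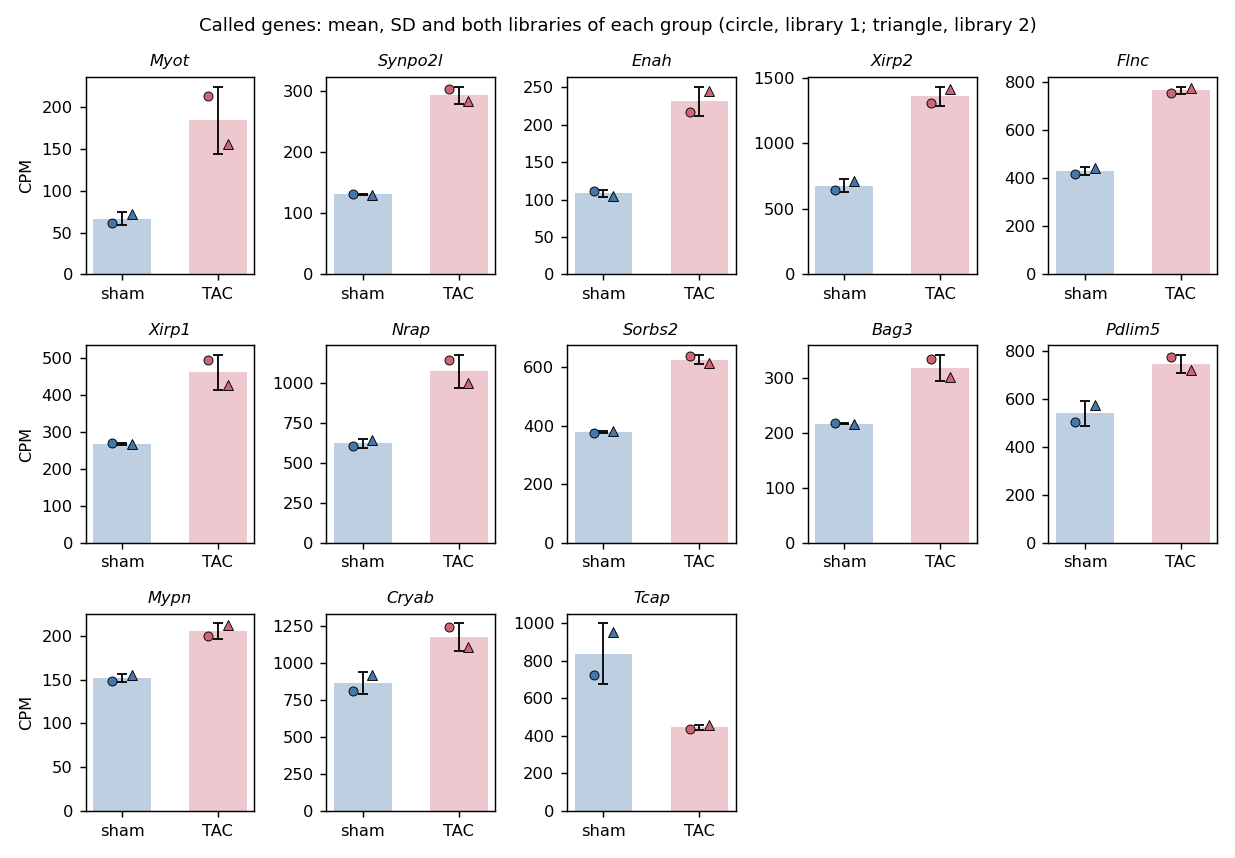
CPM of the 13 called genes in sham (blue) and TAC (red). Bars are means, error bars the SD of the 2 libraries, circles library 1 and triangles library 2, and each axis starts at 0. In 12 panels both TAC symbols lie above both sham symbols, and in the Tcap panel both lie below.

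In the titin and nebulin family, the anchoring protein Nrap rose and the others did not pass the test. Nrap (ENSMUSG00000049134, chr19:56320035-56390037), which serves as a scaffold for new myofibrils and stays at the intercalated disc, was at 602 CPM (sham 1) and 641 CPM (sham 2), against 1145 CPM (TAC 1) and 997 CPM (TAC 2). Both TAC libraries were well above sham (1.72-fold, log2 fold change 0.79 ± 0.09, edgeR adjusted p = 0.00796). Nebl (nebulette), the cardiac relative of nebulin along the thin filament near the Z-disc, was lower in both TAC libraries, at 259 and 277 CPM against 293 and 312 CPM in sham, without passing the test (log2 fold change −0.18 ± 0.08, edgeR adjusted p = 0.191).

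The M-band genes were not called. Myom1 (myomesin), which crosslinks myosin to titin, was at 1430 and 1670 CPM in sham and 1760 and 1826 CPM in TAC. Myom2, the M-protein, was at 841 and 899 CPM in sham and 1095 and 1036 CPM in TAC. In both, the TAC libraries lay above the sham libraries (log2 fold changes 0.21 ± 0.10 and 0.29 ± 0.08, edgeR adjusted p = 0.220 and 0.0809). Myom3, the third myomesin, was at 3.002 to 3.753 CPM in all 4 libraries with overlapping groups. Of the 3 genes 0 were called by edgeR, against 5.01% of all genes, and 1 (Myom2) had an unadjusted p under 0.05. Myom2 was called by DESeq2 (adjusted p = 0.0177) and by edgeR with no low-count filter (adjusted p = 0.0448), but had a log2 fold change of 0.10 with library totals (edgeR adjusted p = 0.638).

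Among the PDZ-LIM proteins, which clasp alpha-actinin and recruit kinases, Pdlim5 was called. Pdlim5 (ENSMUSG00000028273, chr3:142239590-142395696), which binds protein kinase C isoforms, was at 503 and 575 CPM in the sham libraries and 771 and 717 CPM in the TAC libraries. The TAC values were higher, but the sham libraries were 0.19 apart on the log2 scale (log2 fold change 0.47 ± 0.09, edgeR adjusted p = 0.0373). Ldb3 (Cypher/ZASP), a Z-disc stabiliser, was at 851 and 918 CPM in sham and 1150 and 1060 CPM in TAC, apart but not called (log2 fold change 0.32 ± 0.09, edgeR adjusted p = 0.0733). Pdlim7, at 10.6 to 14.1 CPM, and Pdlim3 overlapped between groups, with log2 fold changes of 0.07 ± 0.16 and −0.02 ± 0.20.

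Of the 3 genes grouped as intermediate filament and filamin, Flnc was called. Flnc (ENSMUSG00000068699, chr6:29433256-29461883), filamin C, the muscle filamin that joins actin at the Z-disc and the membrane, was at 418 CPM (sham 1) and 441 CPM (sham 2), against 754 CPM (TAC 1) and 776 CPM (TAC 2). The libraries of each group lay close together (1.78-fold, log2 fold change 0.83 ± 0.08, edgeR adjusted p = 0.00445). Des (desmin), the intermediate filament of muscle, was at 1495 and 1595 CPM in sham and 1983 and 2005 CPM in TAC, with non-overlapping groups and an edgeR adjusted p of 0.0529, just short of the threshold (log2 fold change 0.37 ± 0.08). Cmya5 (myospryn), a large desmin-binding protein, was lower in both TAC libraries, at 742 and 782 CPM against 846 and 962 CPM in sham (log2 fold change −0.25 ± 0.09, edgeR adjusted p = 0.135).

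Chaperones that look after these proteins formed the next group. Bag3 (ENSMUSG00000030847, chr7:128523616-128546981), the co-chaperone that sends damaged filamin to autophagy, was at 217 and 216 CPM in sham and 335 and 302 CPM in TAC (1.47-fold, log2 fold change 0.56 ± 0.08, edgeR adjusted p = 0.0149). Cryab (ENSMUSG00000032060, chr9:50751325-50756636), alpha-B crystallin, a small heat shock protein that binds desmin and titin, was at 814 and 919 CPM in sham and 1244 and 1110 CPM in TAC (log2 fold change 0.44 ± 0.10, edgeR adjusted p = 0.0495). Cryab was the scaffold gene with the highest level per length, from 1061 to 1333 FPKM. Smyd1, a methyltransferase needed for myofibril assembly, was at 371 and 405 CPM in sham and 479 and 443 CPM in TAC (log2 fold change 0.25 ± 0.08, edgeR adjusted p = 0.111). Unc45b, the chaperone that folds the myosin head, stayed between 158 and 177 CPM in all 4 libraries (log2 fold change 0.01 ± 0.08).

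Proteins of the thin filament ends gave 0 calls in 5 genes by edgeR and by DESeq2, where 5.01% of all genes were called by edgeR and 3.58% higher and 3.82% lower by DESeq2. With so few genes this count is near the background. An unadjusted p under 0.05 was found for 1 gene, Lmod2, against 27.5% of all genes. Lmod2, the cardiac leiomodin that lengthens thin filaments, was at 421 and 524 CPM in sham and 775 and 555 CPM in TAC. TAC 2 was close to sham 2 while TAC 1 stood apart (log2 fold change 0.49 ± 0.17, edgeR adjusted p = 0.112), and its call varied with the setting. With all 4 libraries and no low-count filter edgeR called it (0.50, adjusted p = 0.0148). It was also called without TAC 2 (0.71, adjusted p = 0.0219) and without sham 2 (0.66, adjusted p = 0.0271), and not without TAC 1 (0.23, adjusted p = 0.414) or sham 1 (0.34, adjusted p = 0.274). Tmod1, tropomodulin, which caps the pointed end, stayed between 307 and 340 CPM. Cap2, an actin-recycling protein, was at 115 and 118 CPM in sham and 132 and 128 CPM in TAC (log2 fold change 0.15 ± 0.07, or −0.0366 with library totals). Fhod3, a formin of the sarcomere, was between 360 and 381 CPM, and Lmod3, the leiomodin best known from skeletal muscle, between 92.7 and 108.5 CPM, both with overlapping groups. Of the 2 small muscle proteins, Smpx was at 126 and 143 CPM in sham and 180 and 168 CPM in TAC, apart but not called (log2 fold change 0.37 ± 0.09, edgeR adjusted p = 0.0541), and Mlip, a lamin-binding protein, was between 59.95 and 75.1 CPM with overlapping groups.

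**Figure D3:**
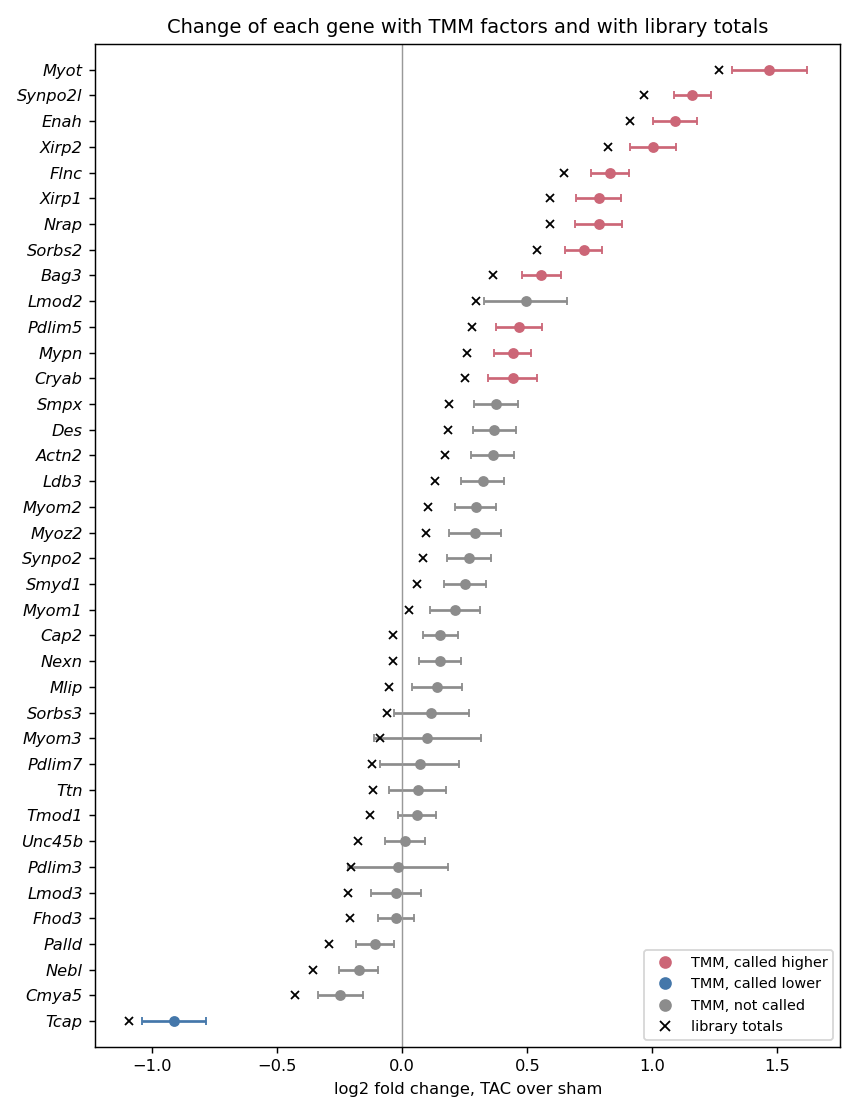
Log2 fold change of TAC over sham for each of the 38 tested genes, ordered by size. Circles with SE bars use TMM factors and are coloured by the edgeR call at an adjusted p under 0.05, and crosses use library totals. The crosses lie to the left of the circles throughout, and 22 of them remain above 0.

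The 12 rises differed in how many settings called them. Myot, Synpo2l, Enah, Xirp2, Flnc, Xirp1 and Nrap were called at an adjusted p under 0.05 under all 11 alternative settings, and Sorbs2 under 10. The other 4 had log2 fold changes from 0.44 to 0.56 and were called less often, under 8 settings for Bag3 and Mypn, 7 for Pdlim5 and 5 for Cryab. Scaling by library totals ended the call of these 4 genes (edgeR adjusted p = 0.0924 for Bag3, 0.259 for Mypn, 0.187 for Pdlim5 and 0.218 for Cryab), where their log2 fold changes were 0.36, 0.26, 0.28 and 0.25 in that order. Leaving out TAC 1, which leaves 1 TAC library and takes the spread from the sham pair, also ended these calls, at 0.48 for Bag3 (edgeR adjusted p = 0.0523), 0.49 for Mypn (0.0526), 0.41 for Pdlim5 (0.126) and 0.36 for Cryab (0.170). Conversely, Actn2, Des, Ldb3, Myom2 and Smpx, not called in edgeR with its low-count filter, were called by edgeR without that filter (adjusted p from 0.0112 to 0.0448) and by DESeq2 (adjusted p = 0.00139 for Actn2, 0.000723 for Des, 0.00984 for Ldb3, 0.0177 for Myom2 and 0.00899 for Smpx). With library totals their log2 fold changes were 0.17, 0.18, 0.13, 0.10 and 0.19 in that order, with edgeR adjusted p from 0.368 to 0.638.

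Levels per transcript length set the order of the genes. In sham, the mean FPKM (fragments scaled by transcript length and sequencing depth) was 1098 for Cryab, 940 for Tcap, 556 for Actn2, 545 for Des, 433 for Myoz2 and 408 for Ldb3. Cryab was at rank 32 and Tcap at rank 51 of all 22322 genes by mean FPKM over the 4 libraries. The 5 genes with the largest log2 fold changes began lower, at 33.0 FPKM for Myot, 35.3 for Synpo2l, 22.6 for Enah, 119 for Xirp2 and 51.3 for Flnc. In TAC their mean FPKM was 79.9 for Myot, 71.7 for Synpo2l, 43.8 for Enah, 229 for Xirp2 and 80.4 for Flnc. Across the 38 genes the Spearman correlation of mean FPKM with log2 fold change was 0.225, and across all 12499 tested genes it was 0.439. Both are descriptions, since genes of 1 set of libraries share depth and scaling.

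**Figure D4:**
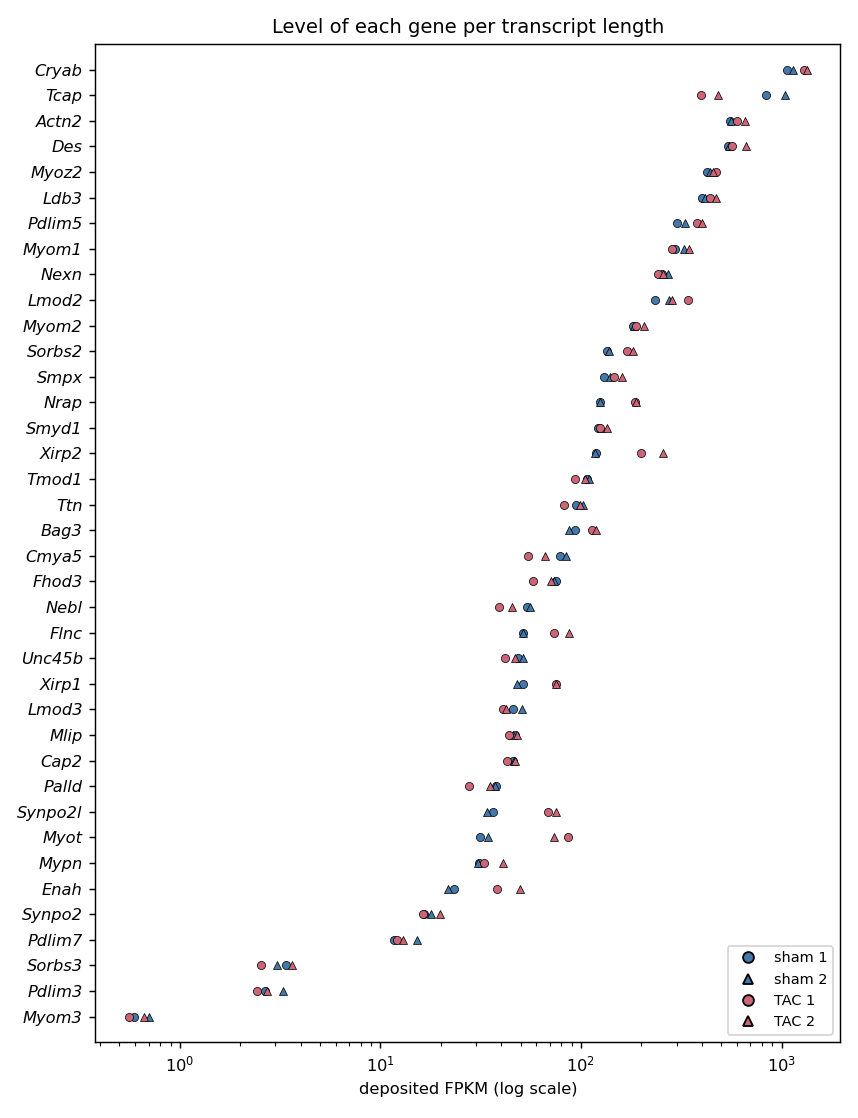
Deposited FPKM of 38 scaffold genes in each library on a log axis, ordered by the sham mean, with sham in blue, TAC in red, circles for library 1 and triangles for library 2. Myoz1 is left out because it is listed at 0 in 3 libraries. Cryab and Tcap top the order in sham, and the TAC symbols of Tcap fall to the left, at 398 and 484 FPKM.

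Paralogues differed in level. Myom1 exceeded Myom2 by 1.53 to 1.77 times and Myom3 by 464 to 523 times in FPKM. Ldb3 was 127 to 182 times Pdlim3, and Pdlim5 was 21.8 to 31.1 times Pdlim7. Lmod2 was 5.09 and 5.41 times Lmod3 in sham and 8.31 and 6.68 times in TAC. Sorbs2 was 40.1 to 67.1 times Sorbs3. Mypn stood below Palld in sham and above it in TAC.

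The transcript length behind the FPKM was not the same in every library for all genes. It can be read back from the deposited count, FPKM and column total, and was constant within 1% across libraries for 19 of the 35 scaffold genes with at least 10 FPKM and 100 counts in every library. For Tcap it was 948 bases in all 4, the length of its annotated transcript. Sorbs2 lay furthest from 0. Its implied length was 3057 and 2857 bases in the sham libraries and 3262 and 3416 bases in the TAC libraries, longer in both TAC libraries (0.18 on the log2 scale). Xirp2 went the other way, from 5911 and 6282 bases in sham to 5662 and 5532 in TAC (−0.12). These 2 of 35 genes (5.71%) lay beyond 0.1 on the log2 scale, close to the 4.59% among 3047 genes at that level. For Enah the implied length was 5275 and 5005 bases in sham and 4948 and 5010 in TAC, with overlapping groups.

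FPKM falls as the implied length rises, by construction, so counts and FPKM differ for these genes. For Sorbs2 the log2 fold change was 0.54 with library totals on counts, but the log2 ratio of its FPKM was 0.36, and limma on log2(FPKM + 1) did not call it (adjusted p = 0.108). For Xirp2 the log2 ratio of FPKM, 0.95, was larger than the 0.82 of its counts with library totals.

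**Figure D5:**
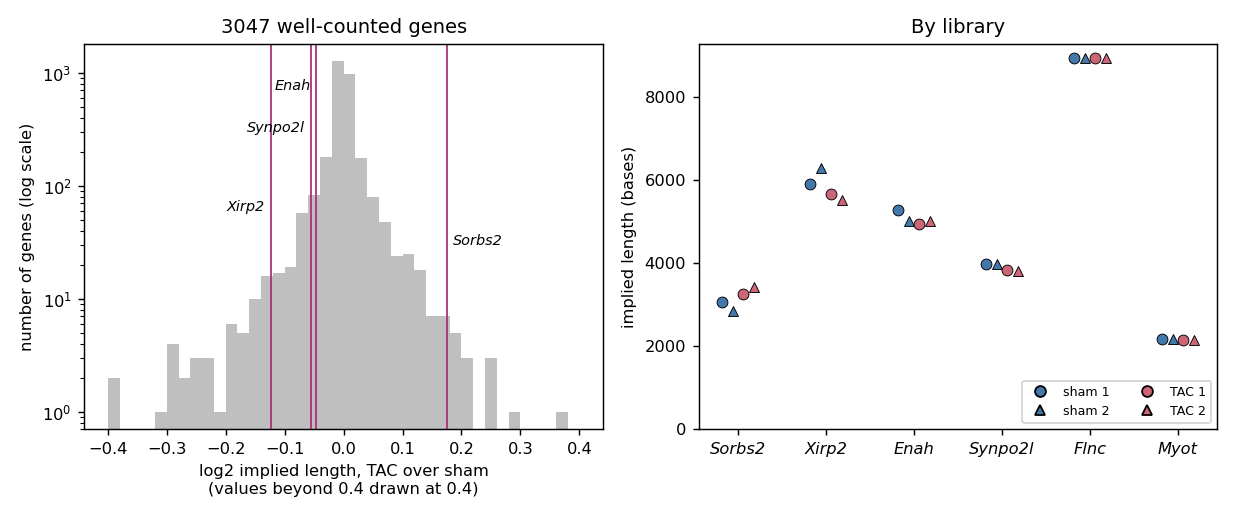
Left, histogram of the log2 ratio of implied transcript length, TAC over sham, for 3047 genes, with a log count axis and lines at 4 scaffold genes. Right, implied length in bases in each library for 6 scaffold genes, sham in blue and TAC in red, circles for library 1 and triangles for library 2. Sorbs2 lies in the right tail at 0.18 and Xirp2 in the left tail at −0.12, while Flnc is level.

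Promoters were searched because many of these genes are known targets of the muscle transcription factors MEF2, SRF and TEAD, which bind the MEF2 site, the CArG box and the MCAT element. RefSeq promoters (GRCm38.p6) were matched by symbol for 29 of the 39 genes (41 start sites), and the 250 bases before each start were scanned on both strands. Cryab, Fhod3, Lmod3, Myom2, Myot, Myoz1, Nexn, Sorbs3, Tcap and Xirp1 were not matched. The MCAT letters are CATTCC, read on either strand, and no motif contains another. A MEF2 site was found in 6 of 29 genes (20.7%), against 2.19% of the 9921 tested genes with a promoter and 3.42% of all 27025 genes. A CArG box was found in 3 genes (10.3%, against 1.42% and 1.62%) and an MCAT element in 7 (24.1%, against 13% and 14.4%). Of the 9 genes called higher that had a promoter, 2 held a MEF2 site, 2 an MCAT element and 0 a CArG box.

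The matches of called genes are shown with 10 bases on either side and the motif in capitals, 5′ to 3′ on the strand of the gene. Synpo2l has 1 match before each of 2 start sites, at chr14:20668444-20668473 and chr14:20664699-20664728 (minus strand), Xirp2 has 1 at chr2:67445918-67445947 (plus strand), Flnc has 1 at chr6:29433142-29433167 (plus strand) and Mypn has 1 at chr10:63203986-63204011 (minus strand), where GGAATG reads CATTCC on the opposite strand.
Synpo2l, MEF2 site, upstream start: gaaatttgtaCTATAATTAGttctaggagt
Synpo2l, MEF2 site, downstream start: tggctcaggtTTATTTTTAGccaggcagac
Xirp2, MEF2 site: agctcagttcCTAAAAATAGgtgctaggtt
Flnc, MCAT element: ggccgggcggCATTCCtgggaggccg
Mypn, MCAT element: ccaatcaggtGGAATGtttcgcaggc

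MEF2 sites of 3 of the uncalled genes that hold one are given beside them for comparison, chosen after the values were seen, and do not stand for all such genes. They lie at chr2:76982694-76982723 for Ttn, chr3:123236366-123236395 for Synpo2 (both minus strand) and chr4:135759670-135759699 for Myom3 (plus strand).
Ttn, MEF2 site: ttctgaaaggCTAAATTTAGcactgccaat
Synpo2, MEF2 site: agcccggctaCTATTTATAGaataattaaa
Myom3, MEF2 site: ctcagcgctgCTATATTTAAgacggttaca

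Of the genes shown with a MEF2 site, Synpo2l and Xirp2 rose, and the log2 fold changes of the uncalled genes were 0.06 for Ttn, 0.27 for Synpo2 and 0.10 for Myom3. A match is a run of letters and not a measured binding site.

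Other genes of the same structures were counted in the same way, again from a list chosen with earlier results of these data known. A second list held 64 further genes of the sarcomere and its partners (capping proteins, LIM and ankyrin-repeat proteins, small heat shock proteins, muscle ubiquitin ligases), of which 62 were tested. Of these, 17 were called higher and 0 lower by edgeR (27.4% higher, against 2.58% of all genes), with 34 higher and 4 lower at an unadjusted p under 0.05 and 24 higher and 1 lower by DESeq2. The median log2 fold change was 0.24. The lowest adjusted p values belonged to Ankrd23, an ankyrin-repeat protein that binds titin, and to Pdlim1 and Wdr1. Ankrd23 was at 337 and 291 CPM in sham and 881 and 721 CPM in TAC (log2 fold change 1.35 ± 0.12, edgeR adjusted p = 0.00445). Pdlim1, a PDZ-LIM protein, was at 36.8 and 36.4 CPM in sham and 70.3 and 60.6 CPM in TAC (0.84 ± 0.09, edgeR adjusted p = 0.00641). Wdr1, which speeds actin disassembly with cofilin, was at 88.1 and 86.4 CPM in sham and 134 and 135 CPM in TAC (0.62 ± 0.07, edgeR adjusted p = 0.00641).

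The make-up of the libraries was checked with marker genes. The libraries held 24237777 to 32118323 counts, of which the 39 scaffold genes took 2.35% and 2.49% in sham and 2.40% and 2.74% in TAC. All 12 cardiomyocyte markers were present, with a summed level of 81340 and 89830 CPM in sham and 90070 and 84730 CPM in TAC. Their median log2 fold change was 0.09, and 0 of 12 were called by edgeR, against 5.01% of all genes. An unadjusted p under 0.05 was found for 5 of them, against 27.5% of all genes. DESeq2 called 4 of them higher and 1 lower, against 3.58% and 3.82% of all genes. Every endothelial, fibroblast, mural and macrophage marker was also detected. All 12 endothelial, 12 fibroblast, 11 mural and 12 macrophage genes had a log2 fold change below 0, as did 6359 of all 12499 tested genes. Called lower by edgeR were 4, 4, 2 and 0 of these markers (33.3%, 33.3%, 18.2% and 0%), against 2.43% of all genes. For macrophages, 6 had an unadjusted p under 0.05 and 1 was called by DESeq2. The summed level was 667 to 787 CPM in sham and 377 to 519.5 CPM in TAC for the endothelial list, 381 to 548 against 209 to 295 CPM for the fibroblast list, 780.1 to 813 against 452 to 595 CPM for the mural list and 71.5 to 140.3 against 39.3 to 71.9 CPM for the macrophage list. Immediate early genes summed to 1116 and 659 CPM in sham and 282 and 271 CPM in TAC. Of these, 9 of 16 were called lower (56.2%, against 2.43% of all genes). Red blood cell genes overlapped between groups (73.7 to 84.9 CPM in sham, 49.9 to 125 CPM in TAC). The skeletal muscle list stayed under 1 CPM in each library, with Myh1, Myh2 and Myh4 at 0 throughout. The part of these differences in the changes of the scaffold genes was not tested. In such bulk samples, fewer cells of a type and less RNA per cell cannot be told apart.

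Some scaffold genes share exonic sequence with genes on the opposite strand, and whether counting used strand was not stated in the methods or labels. Nrap overlaps Habp2 (39 to 86 counts per library, against 18443 to 31912 for Nrap), Cryab overlaps Hspb2 (711 to 916, against 25763 to 34688), Tmod1 overlaps Tstd2 (277 to 313, against 8018 to 9719) and Myom1 overlaps Myl12a (10490 to 18937, against 44652 to 49083). Counts of Nrap, Cryab and Tmod1 were not whole in at least 1 library.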

How the data were processed

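RNA-seq of isolated mouse cardiomyocytes was taken as deposited, for 2 sham and 2 TAC libraries grouped by their titles. Per gene, the authors deposited expected counts, which need not be whole, and FPKM values. The submitters' processing notes name Bowtie2 2.2.8, StringTie 1.3.1 and build mm10. Counting program, annotation release and strandedness were not given in the sources used here. Totals were 24237777 to 32118323 counts per library.

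Expected counts were rounded and filtered with filterByExpr, which left 12499 genes. They were scaled by TMM factors (0.868 to 1.10) and tested with the glmQLFTest of edgeR 4.0.16 in R 4.3.3. P-values were adjusted by Benjamini-Hochberg over all genes tested, with calls under 0.05. The SE is the log2 fold change divided by the square root of F. DESeq2 1.42.0 and limma 3.58.1, the latter on log2(FPKM + 1), served as alternatives, beside other scalings, filters, thresholds, a replicate block and leaving out each library. The fit was tested on simulated data. With 2 libraries per group, an exact permutation test of 1 gene cannot go below p = 0.333, so each p rests on the spread pooled over genes. Replicates differed beyond sampling noise (chi-square per degree of freedom 9.19 for sham and 31.3 for TAC).

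The scaffold genes, the other lists and their roles were chosen with earlier results of these data known. Every scaffold gene is named. Of the second sarcomere list, the 3 called genes with the lowest adjusted p in each direction are named. Promoter matches are shown for called genes. Some promoter sequence is not reported here. Gene positions came from GENCODE M21 (GRCm38, the same assembly as mm10).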

Additional observations from a re-analysis of the deposited data

How the results depend on the processing

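Over the 11 alternatives, 343 single-gene comparisons kept their direction and side of the threshold, 24 gained a call, 18 lost one and 33 changed sign, the last all in genes that were not called. Library totals gave a scaffold median of 0.0901 and totals without mitochondrial genes 0.180. The share of all called genes that were lower was 48.6% with TMM, 80.1% with library totals, 70.5% with totals without mitochondrial genes and 67.8% with the FPKM. With no low-count filter, which tests more genes, 1676 of all genes and 18 scaffold genes higher and 1 lower were called, with Actn2, Des, Ldb3, Lmod2, Myom2 and Smpx gained. Limma on the deposited FPKM called 7 scaffold genes higher and 1 lower, with a scaffold median of 0.0834. Of all genes it called 214 (69 higher and 145 lower). An adjusted p under 0.1 gave 1817 genes, with 17 scaffold genes higher and 1 lower, and one under 0.01 gave 92, with 8 higher and 0 lower. Leaving out 1 library gave 8 (without TAC 1) to 15 (without TAC 2) scaffold genes higher, 0 (without TAC 1) to 1 lower, a median of 0.21 (without sham 1) to 0.35 (without sham 2), and 159 (without TAC 1) to 1045 (without TAC 2) genes in all. In these fits the lone library of a group is assumed to vary like the other group. The cause was not tested. Myoz1 had too few counts to be tested, and Myom3 and Pdlim3 had only 89 to 143 counts per library. With 2 animals per group every call is limited.

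The study's methods describe its mice as pairs of sham and TAC animals, but which libraries form a pair was not stated. Same-numbered libraries did not deviate together (correlation −0.271). With 2 libraries per group this cannot settle the pairing, and the main fit took the libraries as unpaired. The replicate block called 11 scaffold genes higher and 1 lower, with Cryab lost, and 566 of all 12499 genes (268 higher and 298 lower). A crossed replicate block, added after this correlation was seen, called 20 scaffold genes higher and 1 lower. Of all 12499 genes it called 2131 (968 higher and 1163 lower).

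Log2 fold changes that changed sign were, with library totals, Myom3 −0.0876, Ttn −0.119, Pdlim7 −0.120, Sorbs3 −0.0632, Nexn −0.0373, Unc45b −0.177, Tmod1 −0.129, Cap2 −0.0366 and Mlip −0.0538. With totals without mitochondrial genes they were Ttn −0.0352, Pdlim7 −0.0281, Unc45b −0.0888 and Tmod1 −0.0400. With the FPKM they were Myom3 −0.0309, Ttn −0.124, Pdlim7 −0.0862, Sorbs3 −0.0572, Nexn −0.0751, Unc45b −0.175, Tmod1 −0.131, Cap2 −0.0415 and Mlip −0.0198. Leaving out 1 library gave ranges that crossed 0, from −0.0550 to 0.267 for Myom3, −0.0376 to 0.169 for Ttn, −0.191 to 0.175 for Pdlim3, −0.121 to 0.285 for Pdlim7, −0.0435 to 0.262 for Sorbs3, −0.0688 to 0.0926 for Unc45b, −0.134 to 0.0929 for Lmod3 and −0.0645 to 0.0103 for Fhod3.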
